A study of Mus musculus and Mus musculus
Rattus norvegicus with 30 samples.

Results

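The 5 keratin genes Krt7, Krt8, Krt18, Krt19 and Krt42 were followed through RNA-seq, ATAC-seq and ChIP-seq of cells that overexpressed the transcription factor Cdx2. They were 5 of the 19919 genes counted in both RNA-seq tables of mouse embryonic stem cells (mESCs). Krt7, Krt8, Krt18 and Krt19 were taken as the keratins of simple epithelia, and Krt42 was chosen by its difference between mouse and rat Cdx2 in these same libraries. That difference is therefore given below as a description, without a test.

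The mESC libraries were WT cells, cells overexpressing mouse Cdx2 (mCdx2-OE) or rat Cdx2 (rCdx2-OE), and cells overexpressing 7 mutants of rat Cdx2, with 2 RNA libraries per condition. The mutants carried the mouse state at 1 or more of 3 places where the proteins differ: a tyrosine to phenylalanine change (change 1), an alanine to serine change (change 2) and the removal of an asparagine (change 3). R1, R2 and R3 carried 1 change each, R12, R13 and R23 carried 2, and R123 carried all 3. RMES cells, a fusion of haploid mouse and haploid rat embryonic stem cells that keeps both genomes, gave 2 libraries labelled WT, 1 mCdx2-OE and 1 rCdx2-OE library, each counted separately on the mouse and the rat allele. The Flag-tagged Cdx2 came from a doxycycline-inducible lentiviral transgene in stable lines. The study set induced cells against the same kind of cells without doxycycline, and the labels call the controls WT. All cells were kept in a serum-free medium with the inhibitors PD0325901 and Chir99021 and with LIF, a medium that favours the undifferentiated state. ATAC-seq compared 1 WT with 1 mCdx2-OE mESC library, and ChIP-seq against Flag gave 1 library for each Cdx2 in each cell type. The labels do not state that replicates came from separate cultures, so p-values measure only the spread between these libraries, which may be technical. In these bulk samples, fewer cells of a type and less RNA per cell cannot be told apart.

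Keratins are the intermediate filament proteins of epithelial cells. A filament is built from pairs of a type II keratin, such as Krt7 and Krt8, with a type I keratin, such as Krt18, Krt19 and Krt42. Krt8 and Krt18 are the first pair to appear in the embryo, in its outer epithelium, the trophectoderm, where Cdx2 is a defining transcription factor. Krt7 and Krt19 join them in trophoblast and in many ducts and glands, and Krt42 is known mainly from the nail of the mouse.

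Total RNA counts were 74960057 and 94686029 in the 2 WT mESC libraries and 12698443 to 24315929 in the 18 induced ones, while the RMES tables held 36166038 to 41418817 counts for the mouse allele and 29453412 to 35249756 for the rat allele. Cdx2 was between 1.21 and 1.36 CPM (counts scaled to the library total by edgeR) in WT mESCs, 67.0 to 127 CPM with intact Cdx2 and 37.2 to 147 CPM with the mutants. Rat transgene reads were counted on the mouse genome, so these Cdx2 levels cannot be compared between mCdx2 and the constructs made from rat Cdx2 (rCdx2 and the mutants). In the RMES libraries labelled WT, Cdx2 was also present, at 127 to 129 CPM (mouse allele) and 440 to 453 CPM (rat allele). The mCdx2-OE library had 968 CPM on the mouse and 47.2 CPM on the rat allele, and the rCdx2-OE library had 4.45 CPM on the mouse and 880 CPM on the rat allele.

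On the mouse genome (GRCm38), the 2 type II genes and Krt18 lie on chromosome 15 and the other two on chromosome 11. Krt7 (ENSMUSG00000023039, 9 exons) spans chr15:101412402-101430313 on the plus strand. Krt8 (ENSMUSG00000049382, 9 exons) spans chr15:101996698-102004482 on the minus strand, and Krt18 (ENSMUSG00000023043, 7 exons) spans chr15:102028180-102032027 on the plus strand. The start sites of Krt8 and Krt18 are 23698 bases apart and face away from each other. Krt19 (ENSMUSG00000020911, 6 exons) spans chr11:100140810-100146120 and Krt42 (ENSMUSG00000053654, 8 exons) spans chr11:100262887-100269871, both on the minus strand within the type I keratin cluster.

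The promoters of Krt8 and Krt18 are shown because these genes rose together, that of Krt42 because an ATAC peak over it lost reads, and 3 windows of Cdx2 peaks because they lie nearest to Krt8 or hold the most ChIP reads near Krt18. Promoters (250 bases before and 50 after the RefSeq start, build GRCm38.p6) are on the gene's strand and peak windows on the plus strand. Gene spans and peak distances use the start sites of the GENCODE annotation, which differ from the RefSeq starts of these promoters. They are Krt8 at chr15:102004293-102004592, Krt18 at chr15:102027966-102028265, Krt42 at chr11:100269902-100270201, and the central 300 bases of the peaks at chr15:102007518-102007817, chr15:102009305-102009604 and chr15:102038127-102038426. Capitals mark the word CATAAA, the longer word CAATAAA or the word TATAAA on either strand, A-rich words close to the sequence that caudal-type homeodomains are known to bind, chosen after the values were seen.
Krt8 promoter: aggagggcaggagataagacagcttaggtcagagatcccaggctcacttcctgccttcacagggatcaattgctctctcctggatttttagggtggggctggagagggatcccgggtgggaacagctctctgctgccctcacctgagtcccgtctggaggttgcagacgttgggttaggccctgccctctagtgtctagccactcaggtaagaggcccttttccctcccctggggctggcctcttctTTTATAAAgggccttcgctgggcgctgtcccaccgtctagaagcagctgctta
Krt18 promoter: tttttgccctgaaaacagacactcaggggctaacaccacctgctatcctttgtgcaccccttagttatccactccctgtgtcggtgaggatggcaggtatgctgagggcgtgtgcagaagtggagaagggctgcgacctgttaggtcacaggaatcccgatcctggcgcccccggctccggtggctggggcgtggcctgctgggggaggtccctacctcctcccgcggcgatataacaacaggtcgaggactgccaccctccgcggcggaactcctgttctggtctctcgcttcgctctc
Krt42 promoter: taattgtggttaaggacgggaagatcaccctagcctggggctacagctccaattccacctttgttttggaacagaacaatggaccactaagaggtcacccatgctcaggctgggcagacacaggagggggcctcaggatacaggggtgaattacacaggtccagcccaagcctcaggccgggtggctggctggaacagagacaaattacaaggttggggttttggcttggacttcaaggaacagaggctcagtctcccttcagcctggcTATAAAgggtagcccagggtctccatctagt
Peak 3186 bases upstream of Krt8: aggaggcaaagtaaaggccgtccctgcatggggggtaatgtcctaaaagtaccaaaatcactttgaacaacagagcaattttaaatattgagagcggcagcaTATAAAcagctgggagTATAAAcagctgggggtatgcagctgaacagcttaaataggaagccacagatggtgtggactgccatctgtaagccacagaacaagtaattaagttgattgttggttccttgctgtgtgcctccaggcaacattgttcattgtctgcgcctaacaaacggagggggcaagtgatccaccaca
Peak 4973 bases upstream of Krt8: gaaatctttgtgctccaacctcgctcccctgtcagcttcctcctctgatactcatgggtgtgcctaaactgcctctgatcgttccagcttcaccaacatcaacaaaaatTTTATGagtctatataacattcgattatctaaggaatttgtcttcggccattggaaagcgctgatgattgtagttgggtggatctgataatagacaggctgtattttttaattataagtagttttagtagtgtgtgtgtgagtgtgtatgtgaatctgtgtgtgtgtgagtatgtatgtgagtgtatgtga
Peak 10097 bases downstream of the Krt18 start: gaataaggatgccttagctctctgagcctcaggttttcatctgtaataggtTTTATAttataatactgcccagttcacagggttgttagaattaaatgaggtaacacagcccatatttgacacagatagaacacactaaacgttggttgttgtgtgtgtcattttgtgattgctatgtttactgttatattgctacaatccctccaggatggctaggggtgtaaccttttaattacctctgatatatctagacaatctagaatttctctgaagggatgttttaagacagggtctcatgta

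None of the 3 words was in the Krt18 promoter. The Krt8 promoter held TATAAA on both strands, beginning at -3 and -1 from the RefSeq start. The Krt42 promoter held it once, beginning at 20. The word can also be a TATA box, and whether it is one at these places was not tested. Of 32851 RefSeq promoters, 11.9% held CATAAA, 4.6% CAATAAA and 13.6% TATAAA. In the central 300 bases of the 91665 mESC Cdx2 peaks the shares were 50.4%, 30.6% and 51.6%, and in those of 104277 ATAC peaks without a Cdx2 peak they were 11.4%, 4.1% and 10.0%. A match describes the letters and not a bound site.

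In mESCs, the 4 simple epithelial keratins were higher with mCdx2 and with rCdx2 than in WT, and Krt42 was lower. A gene was called at an adjusted p under 0.05 (edgeR, all genes tested) with a change over 2-fold. With mCdx2, 18.4% of the 16000 genes tested were called higher and 15.0% lower, and with rCdx2 19.0% and 15.4%. All 5 members passed the filter on low counts, and their median log2 fold change was 3.68 with mCdx2 and 4.10 with rCdx2, against -0.028 and -0.036 over all genes tested. The members were chosen with earlier results of these data known, so this gap is a description and no test of the set.

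Markers of other cell types moved in the same libraries. Of 11 trophoblast stem markers tested, 7 were higher and 1 lower with mCdx2, and their summed level was 214 to 217 CPM in WT and 473 to 547 CPM with intact Cdx2, Cdx2 itself included. Of 11 primitive endoderm markers, 6 were higher and 0 lower, with sums of 65.6 to 67.8 and 139 to 150.1 CPM. Of 10 pluripotency markers, 0 were higher and 5 lower, with sums of 5932 to 6042 and 2989 to 3435 CPM. Of 7 intestinal markers, 3 were higher and 0 lower, with sums of 65.2 to 67.8 and 34.4 to 44.3 CPM, and of 3 markers of stratified epithelium 1 was higher and 1 lower. Of 8 fibroblast markers, 0 were higher and 5 lower. Their part in the keratin values was not tested.

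**Figure D1:**
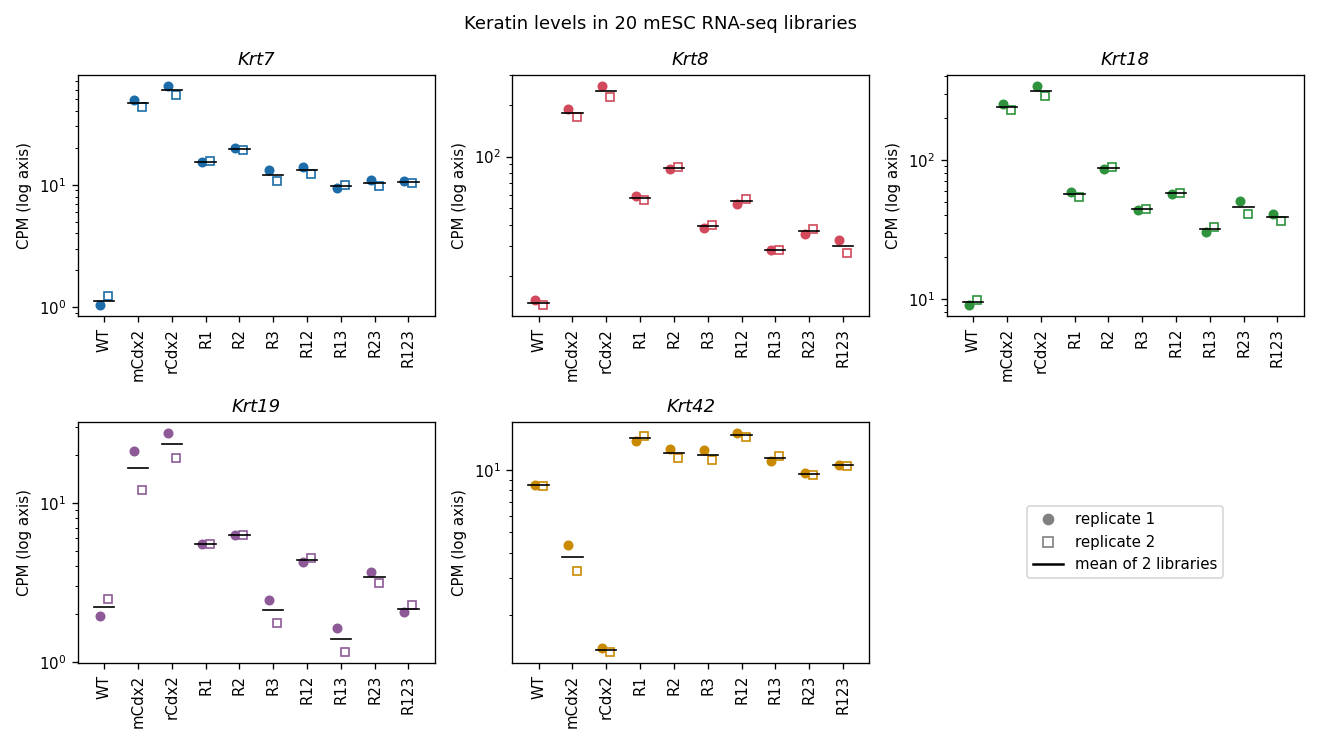
CPM of the 5 keratins in each of the 20 mESC RNA libraries, by condition (log axis). The 4 simple epithelial keratins are highest with intact Cdx2 and Krt42 is lowest there, at 1.32 to 4.35 CPM against 9.47 to 15.2 CPM with the mutants.

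Krt8, the type II partner of Krt18, had 14.5 and 13.6 CPM in the 2 WT libraries, 190.1 and 170.1 CPM with mCdx2, and 259 and 222 CPM with rCdx2. The libraries with either intact Cdx2 lay far above WT. The log2 fold change was 3.68 (SE 0.0998, edgeR adjusted p = 5.84e-14) with mCdx2 and 4.10 (SE 0.101, edgeR adjusted p = 2.48e-14) with rCdx2.

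Krt18 had 8.97 and 9.86 CPM in WT, 251.5 and 230.3 CPM with mCdx2, and 342 and 288 CPM with rCdx2, so the groups with Cdx2 lay far above WT. Its log2 fold change was 4.68 (SE 0.118, edgeR adjusted p = 3.63e-14) with mCdx2 and 5.06 (SE 0.120, edgeR adjusted p = 1.45e-14) with rCdx2. The stated counting options do not ask for multiply mapped reads to be counted, and pseudogenes were taken out of the annotation. Reads that fit Krt8 or Krt18 and a near-identical processed copy equally well may thus be missing from these counts, which was not tested.

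Krt7, a type II keratin of trophoblast and ducts, was nearly absent from WT at 1.03 and 1.22 CPM. It had 49.5 and 43.3 CPM with mCdx2 and 64.5 and 54.2 CPM with rCdx2. These were the largest rises of the 5 members, with log2 fold changes of 5.35 (SE 0.145, edgeR adjusted p = 5.84e-14) and 5.71 (SE 0.146, edgeR adjusted p = 2.93e-14). Krt19, a small type I keratin without a tail domain, had 1.97 and 2.51 CPM in WT, 21.2 and 12.0 CPM with mCdx2, and 27.6 and 19.1 CPM with rCdx2. Its 2 libraries differed more within each construct than those of the other rising keratins, and the log2 fold changes were 2.90 (SE 0.232, edgeR adjusted p = 1.46e-08) and 3.39 (SE 0.232, edgeR adjusted p = 2.17e-09).

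Krt42 went the other way. It had 8.52 and 8.36 CPM in WT, 4.35 and 3.25 CPM with mCdx2, and 1.38 and 1.32 CPM with rCdx2. Both induced groups lay below WT. The gap between them is the difference by which the gene was chosen. The log2 fold change from WT was -1.13 (SE 0.126, edgeR adjusted p = 7.54e-07) with mCdx2 and -2.63 (SE 0.151, edgeR adjusted p = 2.54e-10) with rCdx2, from libraries that also served to choose the gene. Without replicate 2 of the constructs, the value with mCdx2 was -0.96 and no longer past 2-fold.

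Per kilobase of annotated exon length, Krt8 stood highest in WT at 7.18 ± 0.35 CPM per kb (SD, n = 2), with Krt18 at 6.55 ± 0.44. Krt8 was higher in both libraries, though the closest values were 6.94 for Krt8 and 6.86 for Krt18 CPM per kb, and the difference was not tested. Krt42 followed at 4.78 ± 0.063, Krt19 at 1.21 ± 0.21 and Krt7 at 0.160 ± 0.019 CPM per kb. With mCdx2 the order of levels was Krt18 at 168 ± 10 CPM per kb, Krt8 at 91.98 ± 7.2, Krt19 at 8.95 ± 3.5, Krt7 at 6.58 ± 0.62 and Krt42 at 2.15 ± 0.44. Krt19 and Krt7 did not differ there beyond their spread. Krt42 thus stood above Krt19 and Krt7 in WT and below all of the other members with either intact Cdx2. The annotated length was 7049 bases for mouse Krt7, 2065 for rat Krt7 and 1437 to 1958 for the other members in mouse. A shorter length would raise Krt7 per kilobase, so its place beside Krt19 depends on the annotation.

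Side by side, the 4 simple epithelial keratins were slightly lower with mCdx2 than with rCdx2, and Krt42 was higher. The log2 difference of mCdx2 from rCdx2 was -0.36 (SE 0.115) for Krt7, -0.42 (SE 0.0894) for Krt8, -0.39 (SE 0.100) for Krt18 and -0.49 (SE 0.214) for Krt19. For Krt42 it was 1.504 (SE 0.173), the contrast that chose this gene, and no test is given for any of the 5.

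**Figure D2:**
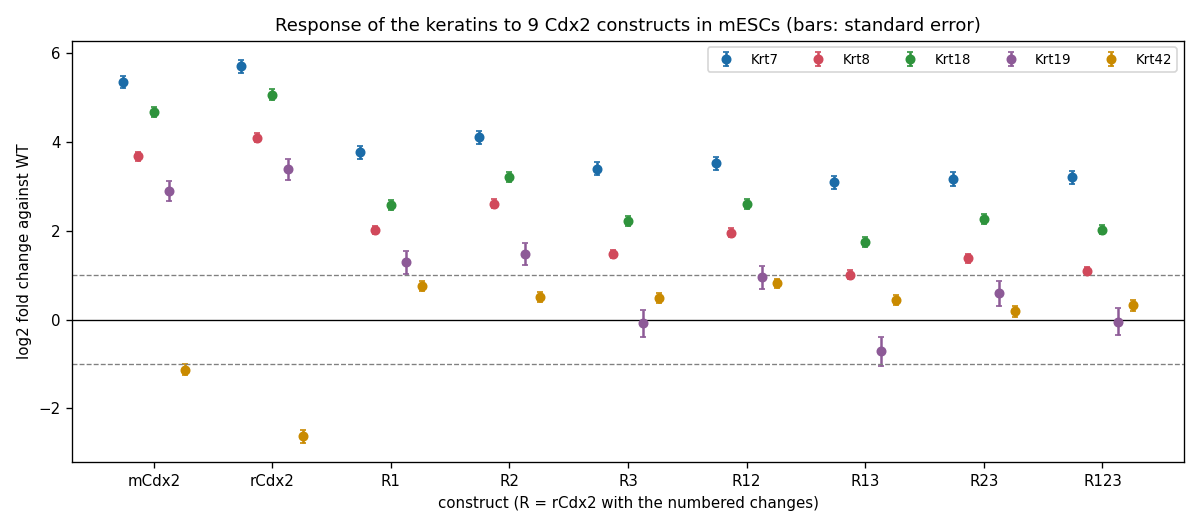
Log2 fold change from WT of each keratin with each of 9 Cdx2 constructs in mESCs, with SE as bars. Krt7, Krt8 and Krt18 lie above 1 with every construct, Krt19 only with some, and Krt42 lies below -1 with mCdx2 and rCdx2 only.

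With the 7 mutants, Krt7, Krt8 and Krt18 were still higher than in WT, each called with all 7. Krt19 was called with R1 (log2 fold change 1.29) and R2 (1.48) but not with the other 5, and Krt42 with none. The share of all genes called higher was 10.1% for R1, 10.6% for R2, 12.2% for R3, 10.6% for R12, 13.6% for R13, 13.8% for R23 and 14% for R123. The log2 fold changes from WT were 3.09 to 4.10 for Krt7, 1.01 to 2.61 for Krt8 and 1.75 to 3.22 for Krt18, with R2 at the top and R13 at the bottom in each case.

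Krt8 with R13 lay close to the 2-fold threshold, at 1.01 (SE 0.0975, edgeR adjusted p = 2.01e-07), and fell under it without WT replicate 2 (0.96) or without the filter on low counts (0.995). Krt8 with R123 (1.10) had 0.97 without construct replicate 1, and Krt19 with R12 (0.96, not called) had 1.15 without WT replicate 2 and was then called. Krt42 lay above WT with all 7 mutants, by 0.19 to 0.82 on the log2 scale. That rise passed an adjusted p of 0.05 in 6 of the 7 but never reached 2-fold, and R23 gave the smallest value (0.19, SE 0.115, edgeR adjusted p = 0.166).

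The mutant levels were far from those of intact Cdx2. This gap also lay between mCdx2 and R123, which both carry the mouse state at all 3 places. Krt8 had 190.1 and 170.1 CPM with mCdx2 and 32.7 and 27.5 CPM with R123. Krt42 had 4.35 and 3.25 CPM with mCdx2 and 10.7 and 10.4 CPM with R123. What separates these constructs was not tested. From correlations of whole transcriptomes, the paper reported similar effects of the mutants, mCdx2 and rCdx2. Over the 14 mutant libraries, the lowest, median and highest CPM were 27.5, 39.2 and 86.8 for Krt8, against 170.1 to 259 CPM in the 4 libraries with intact Cdx2. Krt18 had 30.3, 47.4 and 89.4 CPM, against 230.3 to 342 CPM. Krt7 had 9.41, 11.5 and 19.8 CPM, against 43.3 to 64.5 CPM.

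Krt19 had 1.16, 3.43 and 6.33 CPM with the mutants, against 12.0 to 27.6 CPM with intact Cdx2. Krt42 had 9.47, 11.6 and 15.2 CPM, against 1.32 to 4.35 CPM, so in none of the 5 genes did the 2 sets of libraries overlap. Of the 16000 genes tested, 17.2% had all intact libraries above all mutant ones and 13% had them below. In a comparison of intact with mutant constructs, added after the values were seen, the log2 difference was 2.06 (SE 0.0626) for Krt7, 2.24 (SE 0.0470) for Krt8, 2.49 (SE 0.0521) for Krt18, 2.65 (SE 0.128) for Krt19 and -2.38 (SE 0.0898) for Krt42. All 5 were called (edgeR adjusted p from 1.53e-15 to 2.94e-11), against 12.1% of genes called higher and 3.88% called lower. The split followed from the values seen, and Krt42 was chosen from the libraries of its intact side. The calls therefore describe the gap and are no independent test of it. These p-values measure the spread between libraries of a construct and not between constructs.

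The mutant lines were also stable and induced with doxycycline, but the dose and time used for them are not given in the sources used here, so construct and handling cannot be told apart. The summed level of 9 fibroblast markers moved as well: it was 51.4 to 51.6 CPM in WT, 18.5 to 32.9 CPM with intact Cdx2 and 2.82 to 5.12 CPM with the mutants. Of the 9, none was at 0 in WT, 2 to 3 with intact Cdx2 and 3 to 5 with the mutants. Trophoblast stem markers, Cdx2 included, summed to 473 to 547 CPM with intact Cdx2 and 274 to 414 CPM with the mutants. Pluripotency markers summed to 2989 to 3435 and 3735 to 5158 CPM, and primitive endoderm markers to 139 to 150.1 and 111 to 130 CPM. Sums of stratified epithelium markers overlapped, at 45.9 to 49.9 and 35.5 to 53.2 CPM. The part of these markers in the keratin values was not tested.

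In every mutant, Cdx2 was lower in replicate 2 than in replicate 1, with a ratio of 0.419 to 0.629 (median 0.474, 7 of 7 mutants). Whether transgene reads were counted alike in the tables of the 2 replicates is not known. The median ratios of the keratins were 0.949 for Krt7, 1.02 for Krt8, 1.01 for Krt18, 1.01 for Krt19 and 0.974 for Krt42.

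**Figure D3:**
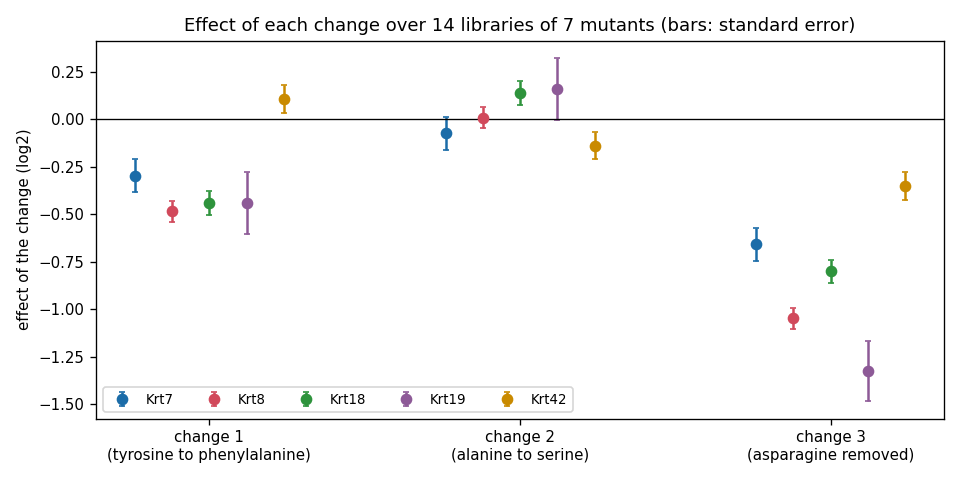
Log2 effect of changes 1, 2 and 3 on each keratin among the 14 mutant libraries, with SE as bars. All 5 values for change 3 lie below 0, from -1.33 for Krt19 to -0.35 for Krt42.

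Among the mutants alone, change 3, the removal of an asparagine, went with lower levels of all 5 keratins. An additive model of the 14 libraries gave log2 effects of -1.33 (SE 0.158, edgeR adjusted p = 1.5e-06) for Krt19, -1.05 (SE 0.0550, edgeR adjusted p = 9.65e-11) for Krt8 and -0.80 (SE 0.0606, edgeR adjusted p = 7.74e-09) for Krt18. For Krt7 it was -0.66 (SE 0.0867, edgeR adjusted p = 4.8e-06) and for Krt42 -0.35 (SE 0.0731, edgeR adjusted p = 0.000545). The 2 libraries of a mutant were entered as separate replicates, so these values do not fully allow for differences between mutant lines. With the rCdx2-OE libraries added to the fit, the value for Krt42 turned to 0.20 (edgeR adjusted p = 0.688) and its call was lost. Of all genes tested, 26.5% were called lower with change 3. Cdx2 was among them, at -0.95 (SE 0.259, edgeR adjusted p = 0.0049), and its part in the keratin values was not tested.

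Change 1, tyrosine to phenylalanine, went with lower Krt8, at a log2 effect of -0.49 (SE 0.0554, edgeR adjusted p = 0.00071), and lower Krt18, at -0.44 (SE 0.0610, edgeR adjusted p = 0.0039). This pair made up 2 of the 4 genes called lower, or 0.0281% of 14214 tested. Both calls were lost when the rCdx2-OE libraries were added to the fit, at -0.94 for Krt8 and -1.04 for Krt18 (edgeR adjusted p = 0.326 for both). Krt7 (-0.30), Krt19 (-0.44) and Krt42 (0.11) were not called.

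For change 2, alanine to serine, edgeR called 0 genes (0.0%), with 1401 at an unadjusted p under 0.05, among them 1 keratin, Krt18. DESeq2 called 12 genes, none of them a member.

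**Figure D4:**
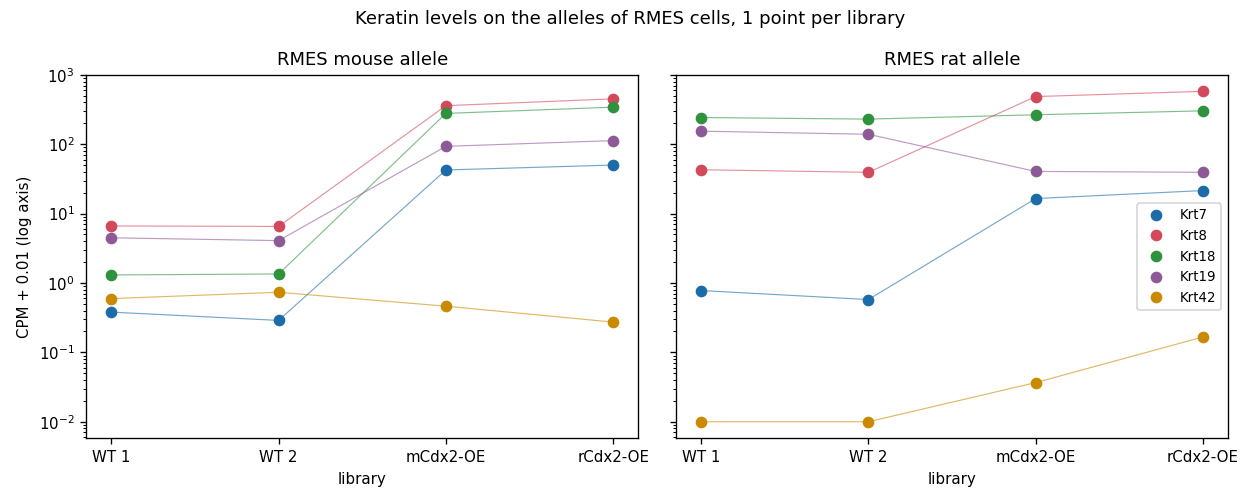
CPM of the 5 keratins on the mouse and rat alleles of the 4 RMES RNA libraries. Krt18 rises by 7.88 on the mouse and 0.27 on the rat allele (log2), and Krt19 rises on the mouse and falls on the rat allele.

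In RMES cells, the mouse and rat copies of the same keratins could be compared within 1 nucleus. The mCdx2-OE and rCdx2-OE libraries were treated as replicates and set against the 2 libraries labelled WT. On the mouse allele, Krt7, Krt8, Krt18 and Krt19 were called higher, as were 28.3% of 16887 genes. On the rat allele, where 4 of the 5 members passed the filter, Krt7 and Krt8 were called higher and Krt19 lower, against 28.3% and 14.2% of 14627 genes.

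Krt18 differed most between the alleles. Its mouse allele had 42 and 48 counts in the libraries labelled WT, 11666 with mCdx2 and 14314 with rCdx2, a log2 fold change of 7.88 (SE 0.133, edgeR adjusted p = 2.13e-13). The rat allele was already high in the libraries labelled WT, with 6634 and 6897 counts (236 CPM), and had 9971 and 11597 counts with Cdx2 (266 and 303 CPM), a log2 fold change of 0.27 (SE 0.0688, edgeR adjusted p = 0.00219) that did not reach 2-fold.

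Krt19 moved in opposite directions. The mouse allele had 145 and 146 counts in the libraries labelled WT, 3912 with mCdx2 and 4716 with rCdx2 (log2 fold change 4.59, SE 0.112, edgeR adjusted p = 4.27e-12). The rat allele had 4217 and 4170 counts, and 1520 and 1508 with Cdx2 (log2 fold change -1.88, SE 0.0668, edgeR adjusted p = 1.67e-12).

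Krt8 rose on both alleles. The mouse allele had 215 and 234 counts in the libraries labelled WT, 15086 with mCdx2 and 18863 with rCdx2 (log2 fold change 5.95, SE 0.116, edgeR adjusted p = 7.52e-13). The rat allele had 1173 and 1179, then 18241 and 22159 (log2 fold change 3.70, SE 0.0879, edgeR adjusted p = 2.4e-14). Krt7 also rose on both, from 12 and 10 counts to 1785 and 2095 on the mouse allele (log2 fold change 7.15, SE 0.177, edgeR adjusted p = 4.53e-12) and from 21 and 17 to 618 and 822 on the rat allele (log2 fold change 4.83, SE 0.214, edgeR adjusted p = 1.77e-11).

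Krt42 was scarce on both alleles. The mouse allele had 19 and 26 counts in the libraries labelled WT, 19 with mCdx2 and 11 with rCdx2 (log2 fold change -0.87, SE 0.418, edgeR adjusted p = 0.0706). Without the mCdx2-OE library it was called, at -1.32 (edgeR adjusted p = 0.0448). The rat allele had 0 and 0 counts, then 1 and 6, and no fold is given.

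The response was larger on the mouse than on the rat allele for Krt18 by 7.58 on the log2 scale (SE 0.0745, edgeR adjusted p = 5.43e-40), for Krt19 by 6.44 (SE 0.0850, edgeR adjusted p = 5.71e-36), for Krt7 by 2.31 (SE 0.410, edgeR adjusted p = 8.21e-06) and for Krt8 by 2.23 (SE 0.0591, edgeR adjusted p = 4.81e-27). Krt42 entered this test through its mouse counts, and with 0 rat counts in both libraries labelled WT no difference is given for it. Of 13605 genes with the same symbol on both, 30.8% had a larger and 31.8% a smaller response on the mouse allele. Cdx2 was higher on the rat than on the mouse allele in the libraries labelled WT, and the sum of fibroblast markers was 38.3 to 49.4 CPM there and 15.3 to 22.7 CPM with Cdx2 (mouse allele), or 38.8 to 46.7 and 44.2 to 60.1 CPM (rat allele). In the libraries labelled WT, intestinal markers summed to 390 to 420 CPM (mouse allele) and 102 to 109 CPM (rat allele). With Cdx2 these sums were 27.5 to 31.6 and 20.2 to 24.4 CPM. Primitive endoderm markers had 245 to 250 CPM in WT and 82.6 to 93.1 CPM with Cdx2 on the mouse allele. On the rat allele they had 453 to 467 and 399 to 478 CPM. The sum of pluripotency markers was lower with Cdx2 on both alleles. The part of Cdx2 and of these markers in the difference was not tested.

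Between the 2 induced RMES libraries there is no replicate, and the ratio of rCdx2 to mCdx2 carries a 95% exact interval for counting error only. On the mouse allele it was 1.18 (1.10 to 1.25) for Krt7, 1.25 (1.23 to 1.28) for Krt8, 1.23 (1.20 to 1.26) for Krt18 and 1.21 (1.16 to 1.26) for Krt19. For Krt42 it was 0.581 (0.250 to 1.28), an interval that includes equal levels. On the rat allele it was 1.30 (1.17 to 1.45) for Krt7, 1.19 (1.17 to 1.21) for Krt8, 1.14 (1.11 to 1.17) for Krt18 and 0.972 (0.905 to 1.04) for Krt19.

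**Figure D5:**
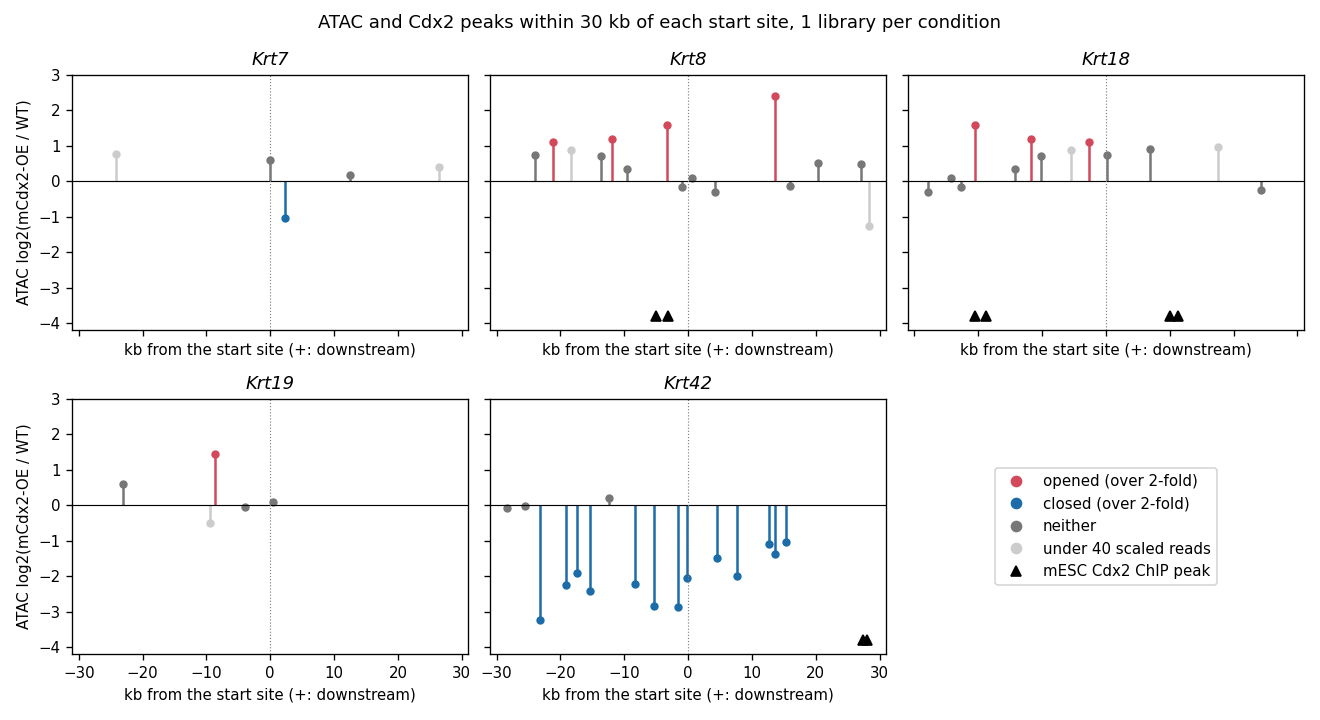
Log2 ratio of scaled ATAC reads (mCdx2-OE over WT mESCs) of peaks within 30 kb of each keratin start site, against distance from the start, with Cdx2 peaks marked. Around Krt42, 13 of 16 peaks lie below -1 with enough reads to be called, and the peaks that opened lie around Krt8, Krt18 and Krt19.

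Chromatin near the genes was compared between 1 WT and 1 mCdx2-OE mESC library, which allows no test. An ATAC peak was called opened or closed when its scaled reads changed over 2-fold with a total of at least 40. Of 122350 peaks, 9.56% opened and 14.3% closed. Within 30 kb of the 5 start sites there were 44 peaks, of which 5 opened and 14 closed. Without scaling to the library totals, 10 opened and 9 closed.

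Around Krt42, 13 of 16 peaks closed and 0 opened. The window takes in the neighbouring gene Krt17. Of the closed peaks, those 13594 and 12654 bases downstream of the Krt42 start lie in Krt17. Those 15379 and 7669 bases downstream lie between genes, nearest to the starts of Krt16 and Krt17. The peak over its promoter (chr11:100269899-100270329) went from 53.0 to 12.2 scaled reads, a log2 ratio of -2.04. A peak 5343 bases upstream went from 156.6 to 20.9 (-2.85), and one 23267 bases upstream from 89.5 to 8.69 (-3.22). A peak 12433 bases upstream kept 139 and 161 reads.

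The Krt8 and Krt18 windows shared 10 peaks, and none of their peaks closed. Peaks opened 13540 bases downstream of the Krt8 start (16.5 to 92.1 scaled reads, log2 ratio 2.41) and 3249 bases (20.02 to 62.6, 1.597), 11990 bases (23.6 to 54.8, 1.18) and 21121 bases (31.8 to 69.5, 1.10) upstream of it. The promoter peaks were not called, at 118.9 and 126.9 reads for Krt8 and 49.5 and 83.4 for Krt18. At Krt19, 1 of 5 peaks opened, 8576 bases upstream (10.6 to 30.4, 1.44), and at Krt7, 1 of 5 closed, 2268 bases into the gene (88.3 to 42.6, -1.04).

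Flag ChIP-seq in mESCs had 6 Cdx2 peaks in these windows, 4 of them within 30 kb of Krt18, including 2 that also lie near Krt8, and 2 near Krt42. Which ChIP column holds mCdx2 and which rCdx2 was read from the letters M and R in the column names. The peak 3186 bases upstream of Krt8, which holds TATAAA at 2 places in the sequence above, had 74.7 scaled reads with mCdx2 and 74.2 with rCdx2. It lay on the ATAC peak that opened 3249 bases upstream, and was the only one of the 6 on an ATAC peak, where 20% of all 91665 Cdx2 peaks lay on one.

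The peak 10097 bases downstream of the Krt18 start had the most reads, 113.5 with mCdx2 and 82.7 with rCdx2, and its neighbour 11311 bases downstream had 45.4 and 39.2. The peak 4973 bases upstream of Krt8, whose sequence holds CATAAA on the other strand, had 40.7 and 47.7. Near Krt42, peaks 27438 and 27996 bases downstream of the start had 42.6 and 41.4, and 28.4 and 15.9. Both lie closer to the start of Krt16 than to that of Krt42. No Cdx2 peak lay within 30 kb of Krt7 or Krt19. On the mouse genome of RMES cells, 3 peaks were called in these windows, 5006 bases upstream of Krt8 (19.6 and 36.6 scaled reads) and 10112 (71.1 and 56.0) and 11309 bases (38.2 and 25.2) downstream of the Krt18 start.

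Other genes of the keratin network are read against the 18.4% of all genes called higher and 15.0% called lower with mCdx2, and 19.0% and 15.4% with rCdx2. Of 15 other keratins counted, 5 passed the filter in mESCs, of which 1 was higher and 1 lower with mCdx2, and 3 higher and 2 lower with rCdx2. Krt20, a type I keratin of the gut, had a log2 fold change of 4.44 (SE 0.510, edgeR adjusted p = 1.03e-06), and Krt17, the gene beside Krt42, of -2.45 (SE 0.458, edgeR adjusted p = 0.00017). Both folds rest on low levels: the 15 other keratins together summed to 5.85 to 5.95 CPM in WT and 5.13 to 7.81 CPM with intact Cdx2. On the RMES alleles, 5 of 8 tested keratins were higher and 3 lower on the mouse, and 6 of 8 higher and 1 lower on the rat allele, against 28.3% and 16.1% of all genes on the mouse and 28.3% and 14.2% on the rat allele. Of the genes that anchor keratins in desmosomes and hemidesmosomes, 7 of 18 were higher and 1 lower with mCdx2 and likewise with rCdx2 (median log2 fold changes 0.62 and 0.65). Dsc2, a desmosomal cadherin, rose by 5.07 (SE 0.143) and Dsp, which ties keratin filaments to the desmosome, by 3.58 (SE 0.113), while the plakin Evpl had -1.06 (SE 0.238).

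Of 14 other intermediate filament genes, 2 were higher and 5 lower with mCdx2, and the counts were equal with rCdx2, again against 18.4% and 15.0% of all genes with mCdx2. Those higher with mCdx2 were Sync and Des. Among those lower, Vim, the filament of mesenchymal cells, had a log2 fold change of -2.70 (SE 0.0792), and Ina, a neuronal filament, of -3.60. Of 14 epithelial transcription factors, 6 were higher and 2 lower with either Cdx2, with Gata2 at 5.25 and Gata3 at 3.13, both trophoblast regulators, and Grhl2 and Ovol2 both at -2.33 (mCdx2 against WT). Of 12 epithelial surface genes, 4 were higher and 1 lower with mCdx2, and 5 and 1 with rCdx2, with the tight junction genes Cldn3 at 2.78 and Cldn4 at 1.55 and the splicing regulator Esrp1 at -4.51.

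By the correlation of mean log2(CPM + 1) over the 10 mESC conditions, among 11897 genes, the nearest to Krt7 were Gab2 (r = 0.997), Farp1 (0.996) and Cers2 (0.995). The desmosomal gene Pkp2 (0.993) was nearest to Krt8, with Gprc5a and Zmiz1 (both 0.992), and Tmprss2 (0.996), Abhd5 (0.995) and Nxf7 (0.993) were nearest to Krt18. Fosl2 (0.989), Acbd3 (0.982) and Fam198b (0.981) were nearest to Krt19. For Krt42 they were Nfib (0.987), Sod2 (0.986) and Plcb4 (0.982). These conditions share libraries and are few, so the values are descriptions. Over the 9 induced conditions alone, Dsc2 was nearest to Krt8 (0.997) and Zfp7 to Krt42 (0.994).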

How the data were processed

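Every table used holds raw counts, as deposited by the authors. RNA-seq read pairs were aligned by the authors read pairs with STAR 2.7.0d and counted per gene name by strand with featureCounts. The 2 mESC replicates were counted in separate runs. The authors treated the mCdx2-OE and rCdx2-OE RMES libraries as replicates, which was kept here. In RMES cells, reads were assigned to mm10 or rn6 by edit distance, and the treatment of ties is not stated. ATAC-seq and ChIP-seq reads were aligned with Bowtie2 2.3.4.3, both libraries were merged for peak calling with MACS2, and the authors deposited the counts in these peaks, so presence of a peak in each library alone cannot be read from them. Versions are from the submitters' processing notes.

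Counts were tested with edgeR 4.0.16 and limma 3.58.1 in R 4.3.3 (TMM, filterByExpr, quasi-likelihood test, Benjamini-Hochberg adjustment over all genes). The SE of a log2 fold change was its size divided by the root of F. The 20 mESC libraries shared 1 model, changes 1, 2 and 3 were fitted on the 14 mutant libraries, and the allele difference used the library as a block. Mouse and rat genes were paired by symbol. DESeq2 1.42.0, other normalisations, filters and windows and leaving out each library were the alternatives. The fit was also run on simulated counts of independent libraries with the same spread for all genes. That setting differs from these data, so it does not show that the p-values hold here. Replicates in no condition agreed within sampling noise. Counts in peaks were brought to the average library total, with 1 added before the logarithm. ChIP-seq totals were 5550846 to 6223794 in mESCs and 3387074 to 4357448 on the mouse genome of RMES cells, and ATAC-seq totals 6109353 and 8277850.

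The members and the gene lists were chosen with earlier results of these data known. Named genes were the 5 members, up to 2 genes per list that rose and 2 that fell most with mCdx2 past the threshold with a mean of at least 50 counts, the 3 genes most correlated with each member, and neighbouring keratins. Krt20 was named after its values were seen. Rat gene positions and the rat-genome ChIP-seq peaks were not used here.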

Additional observations from a re-analysis of the deposited data

Results flagged for a closer look

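The response to Cdx2 in RMES cells differed between the mouse and the rat allele in 4 keratins, by a test of the interaction of allele and Cdx2. On the log2 scale, the response on the mouse minus that on the rat allele was 7.58 for Krt18, 6.44 for Krt19, 2.31 for Krt7 and 2.23 for Krt8. For Krt42 the same fit gave -5.70, which is no usable value: the rat allele had 0 counts in both libraries labelled WT and at most 6 in the others, so the gene was tested only through its mouse counts. Its call was lost with DESeq2 (adjusted p = 0.117) and without either library labelled WT (edgeR adjusted p = 0.0745 and 0.123) or without rCdx2-OE (edgeR adjusted p = 0.342).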

How the results depend on the processing

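Depth limits mainly Krt42 in RMES cells and the peaks, which have 1 library per condition. The labels give no shared origin for a replicate number. Over 45 pairs of conditions, the deviations of same-numbered libraries correlated from -0.14 to 0.45 (median -0.0027), with 21 over 0.1 and not all, so the libraries were not treated as paired. With a replicate block 31 values against WT stayed called higher and 2 lower. Calls lower than WT went from 2 to 1 at a 4-fold threshold and ranged from 1 to 2 when a library was left out. Keratin calls lower with changes 1, 2 and 3 went from 7 to 4 when the rCdx2-OE libraries were added. In that fit, change 2 reversed to -0.43 for Krt19, 0.38 for Krt42, -0.47 for Krt8 and -0.48 for Krt18, and change 3 to 0.20 for Krt42. Leaving out a library turned the sign of uncalled values near 0: Krt19 with R123 ranged from -0.21 to 0.14 (0.025 in another fit) and with R3 from -0.35 to 0.14 (0.11 in another), and change 2 in Krt8 from -0.047 to 0.033 (-0.0043 and -0.0033 in others). Without RMES mCdx2-OE, 1 keratin, Krt42, was called lower on the mouse allele against 0. The smaller mouse response of Krt42 was called in 1 fit and in 0 with DESeq2 or without 3 of the 4 libraries in turn (0 to 1). Opened ATAC peaks numbered 10 without scaling, 3 within 10 kb and 2 at a total of 100, and closed ones 9, 7 and 6. Cdx2 peaks in mESCs numbered 2 within 10 kb and 18 within 100 kb (6 on an ATAC peak), and in RMES cells 1 and 9 (2 on an ATAC peak). The cause of these shifts was not tested, apart from the windows and thresholds, which admit other peaks by construction.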
